A study of Mus musculus with 3 samples.

Results

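Resident macrophages of the mouse heart selected on Lyve1, Timd4 and Folr2 transcripts, and on the lack of Cd209d, Cd209f and Cd209g lectin transcripts, were described across a Western diet (WD), a high fat diet (HFD) and a control diet (CD). The selection used measured values, library by library. A barcode needed at least 1000 UMIs (unique molecular identifiers, each counting 1 captured transcript), 200 or more genes, and no more than 10% of UMIs from the mitochondrial genome. A cell then needed at least 0.3% of its UMIs in C1qa, C1qb and C1qc (the C1q gate), at least 0.1% in Timd4, Lyve1 and Folr2 together with 1 or more UMIs of Lyve1 or Timd4, and 0 UMIs of Ccr2, Cd209d, Cd209f and Cd209g. These steps kept 1459 WD, 507 HFD and 668 CD cells, 2634 of the 10171 cells past the barcode filters. They are called members below.

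Tissue-resident macrophages of the heart are long-lived phagocytes that are largely seeded before birth and renew themselves in place, whereas a Ccr2 positive population is replenished by blood monocytes. Lyve1 encodes a hyaluronan receptor, Timd4 a phosphatidylserine receptor used to bind dying cells, and Folr2 the folate receptor beta. In the heart, resident macrophages take up debris shed by cardiomyocytes and lie close to vessels, and the Ccr2 positive population is known for stronger antigen presentation and inflammatory gene expression.

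All mice were wild type, aged 32 to 34 weeks. Hearts were digested with collagenase II for 30 minutes at body temperature, and cells positive for CD45, F4/80 and CD11b were sorted and profiled with droplet-based 3′ single-cell RNA sequencing, 1 library per diet. How many mice were pooled into a library, what the diets contained and how long they lasted are not stated in the labels. No difference between diets therefore has a replicate check, no test was made, and every interval is an exact 95% interval that covers counting error only.

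The WD library stood apart before any diet is considered. It held 79269380 UMIs, against 16630481 in HFD and 17464149 in CD, and members had a median of 12201 UMIs in WD, 3123 UMIs in HFD and 4526 UMIs in CD. Its file was written by software version 7.2.0, against 3.0.1 for HFD and CD. Of the barcodes in the WD file, 1.34% are also found in the CD file, which lists near-empty barcodes too. Of those in the HFD file, 100% are found there. Most WD barcodes thus lay outside the barcode list that HFD and CD share, and the reason was not tested. Between WD and CD members the median log2 ratio over genes ran from -0.78 in the group of genes with the shortest introns to 2.63 in the group with the longest (10 groups), while between HFD and CD members it ran from -0.06 to 0.07. How reads in introns were handled is not stated in the labels, so diet and library processing cannot be told apart in any WD contrast. Among cells past the filters, HFD and CD shared 15 barcodes (1 between members), WD and CD shared 1, which lay between members, and WD and HFD shared 0.

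**Figure D1:**
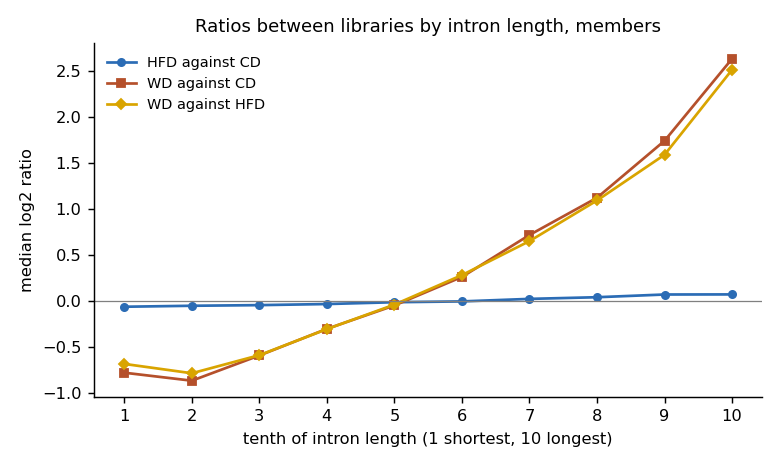
Median log2 ratio of summed, depth-scaled UMIs between the members of 2 libraries (vertical axis) over genes in 10 groups by intron length (horizontal axis, shortest to longest), 1 line per pair of libraries. Both WD lines dip from the first to the second group, then climb with intron length and reach 2.63 and 2.51 in the last group, and the line of HFD against CD stays between -0.06 and 0.07.

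In the GENCODE vM21 annotation of GRCm38, the genes that mark these cells lie as follows: Timd4 (ENSMUSG00000055546) at chromosome 11, 46810800 to 46844332; Lyve1 (ENSMUSG00000030787) at chromosome 7, 110850607 to 110863239; Folr2 (ENSMUSG00000032725) at chromosome 7, 101839988 to 101857194; Vsig4 (ENSMUSG00000044206) at chromosome X, 96247203 to 96293438; Cbr2 (ENSMUSG00000025150) at chromosome 11, 120729489 to 120732114; and F13a1 (ENSMUSG00000039109) at chromosome 13, 36867178 to 37050244. The RefSeq promoters of these genes (GRCm38.p6) were taken from 250 bases before to 50 after the start. Both strands were searched for the MAF half-site TGCTGAC, the PU.1 site GAGGAAGT and the AP-1 site TGACTCA. Timd4, Lyve1 and Folr2 are high in members by the rule, so shared control of these genes was not tested. MAF-family factors and PU.1 are regulators of macrophage identity, and AP-1 is the dimer of Fos and Jun proteins. The MAF and AP-1 motifs can share letters, and no matches overlapped in these promoters. The table holds promoters of 5 of the 6 genes, with a pair of starts each for Folr2 and F13a1. A MAF half-site lay in the promoters of Timd4 and Cbr2, an AP-1 site at the start of Folr2 listed at the lower coordinates, and a PU.1 site at the F13a1 start listed at the lower coordinates. The match lay 45 bases before the start in Timd4 and 74 bases before it in Folr2. In Cbr2 and F13a1 the match lay after the start, within the transcribed part. The Vsig4 promoter and the other starts of Folr2 and F13a1 held none of the 3. Of 32851 promoters of the same length, 4.67% held the MAF half-site, 3.20% the PU.1 site and 5.20% the AP-1 site. The 4 promoters with a match are printed 5′ to 3′ on the strand of the gene, with the match in capitals (the reverse complement where the motif lies on the opposite strand).
Timd4 (chr11:46810549-46810848, plus strand): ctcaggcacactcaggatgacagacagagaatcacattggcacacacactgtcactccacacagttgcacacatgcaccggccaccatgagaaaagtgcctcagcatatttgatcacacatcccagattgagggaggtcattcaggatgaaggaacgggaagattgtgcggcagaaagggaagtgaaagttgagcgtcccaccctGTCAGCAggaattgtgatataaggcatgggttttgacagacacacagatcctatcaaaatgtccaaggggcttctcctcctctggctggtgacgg
Cbr2 (chr11:120731972-120732271, minus strand): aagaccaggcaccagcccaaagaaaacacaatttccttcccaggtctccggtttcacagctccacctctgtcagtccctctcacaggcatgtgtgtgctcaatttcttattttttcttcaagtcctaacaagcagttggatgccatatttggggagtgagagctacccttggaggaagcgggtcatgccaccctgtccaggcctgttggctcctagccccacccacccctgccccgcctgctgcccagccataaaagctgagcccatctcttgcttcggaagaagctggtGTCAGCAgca
Folr2 (chr7:101845282-101845581, minus strand): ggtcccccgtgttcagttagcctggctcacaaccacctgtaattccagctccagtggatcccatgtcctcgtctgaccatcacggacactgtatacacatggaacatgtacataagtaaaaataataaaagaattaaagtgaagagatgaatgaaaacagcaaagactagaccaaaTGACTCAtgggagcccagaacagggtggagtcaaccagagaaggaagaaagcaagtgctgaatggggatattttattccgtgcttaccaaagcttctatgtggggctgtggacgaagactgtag
F13a1 (chr13:37049164-37049463, minus strand): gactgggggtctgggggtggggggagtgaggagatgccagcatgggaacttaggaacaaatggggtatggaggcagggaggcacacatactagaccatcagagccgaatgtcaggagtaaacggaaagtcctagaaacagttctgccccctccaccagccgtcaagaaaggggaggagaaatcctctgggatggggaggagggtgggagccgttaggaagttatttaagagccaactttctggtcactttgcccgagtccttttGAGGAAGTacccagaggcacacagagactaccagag

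The C1q gate held 3717 cells in WD, 2002 in HFD and 2293 in CD, and the members' share of them was 39.3% (37.7 to 40.8) in WD, 25.3% (23.4 to 27.3) in HFD and 29.1% (27.3 to 31.04) in CD, with exact Clopper-Pearson intervals. The share was thus highest in WD and lowest in HFD. With each cell thinned to 1000 UMIs before gating it was 41.1% (39.5 to 42.8) in WD, 18.8% (17.1 to 20.6) in HFD and 22.01% (20.3 to 23.8) in CD, and the order of the libraries was the same. The last steps of the gate removed different fractions. Of the cells that passed the Timd4, Lyve1 and Folr2 step, the share with Ccr2 was 14.2% (12.6 to 15.9) in WD, 4.22% (2.91 to 5.91) in HFD and 12.5% (10.5 to 14.6) in CD. Of those without Ccr2, the share with a Cd209 transcript was 7.42% (6.18 to 8.83) in WD, 30.2% (26.8 to 33.6) in HFD and 29.6% (26.7 to 32.6) in CD. Cd209f, a C-type lectin gene of resident macrophages that the rule set to 0 in members, stood at 16.5 CPM in WD, 489 in HFD and 342 in CD in the C1q-gated cells outside the members (CPM, UMIs summed over the cells and scaled to 1000000 UMIs of the genes shared by the files). This level comes from the same counts as the share lost at the Cd209 step. A share of cells with 0 UMIs also depends on depth, and the part of depth in these shares was not tested beyond the thinning.

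**Figure D2:**
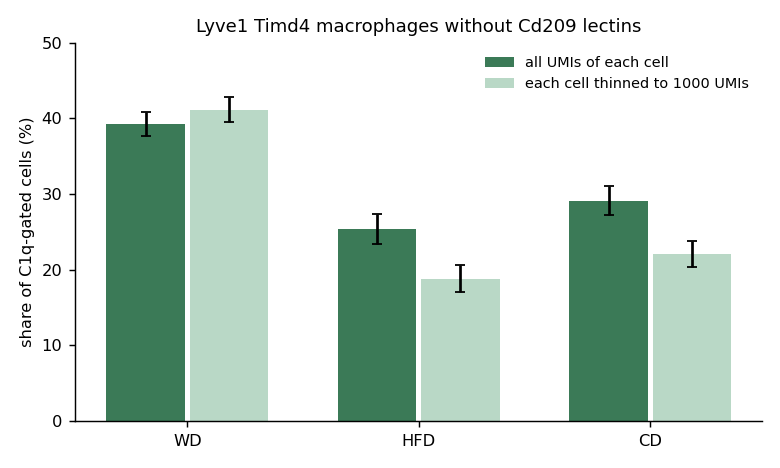
Members as a share of C1q-gated cells in percent (vertical axis) for the WD, HFD and CD libraries, with all UMIs of each cell (dark bars) and with each cell thinned to 1000 UMIs (light bars). Error bars are exact 95% Clopper-Pearson intervals. The dark bars stand at 39.3%, 25.3% and 29.1%, and WD is highest in both settings.

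Detection of the 3 gate genes differed between the libraries. Folr2 UMIs were found in 97.9% of WD, 98.2% of HFD and 98.95% of CD members. Lyve1 was found in 99.6% of WD, 87.97% of HFD and 91.6% of CD members, and Timd4 in 73.1% of WD, 48.3% of HFD and 56.6% of CD members. Thinned to 1000 UMIs, members (gated on all UMIs) held Timd4 in 14.4% of WD, 17.9% of HFD and 18.6% of CD cells. Cells with almost no C1q (under 0.05% of UMIs; median 10483 UMIs in WD, 2439.5 UMIs in HFD and 3446 UMIs in CD) held Timd4 in 5.89% of WD, 0.93% of HFD and 1.48% of CD cells, and Lyve1 in 12.8% of WD, 2.79% of HFD and 1.11% of CD cells. Both Timd4 and Lyve1 were seen in 72.7% of WD, 36.3% of HFD and 48.2% of CD members, and Timd4 without Lyve1 in 0.411% of WD, 12.03% of HFD and 8.38% of CD members. Summed over members, Timd4 stood at 155 CPM in WD, 220.0 in HFD and 208 in CD. Lyve1 stood at 1337 CPM in WD, 783 in HFD and 746 in CD, and Folr2 at 843 CPM in WD, 2044 in HFD and 1822 in CD. WD was the highest library for Lyve1 and the lowest for Folr2 and Timd4.

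The cells on either side of the Timd4, Lyve1 and Folr2 threshold were few. Cells whose Timd4, Lyve1 and Folr2 share lay between 0.1% and 0.12% and that passed the other steps numbered 144 in WD, 31 in HFD and 38 in CD. Those between 0.08% and 0.1%, just outside, numbered 117 in WD, 21 in HFD and 27 in CD. F13a1 stood at 3046 CPM in WD, 979.7 in HFD and 953 in CD just inside, against 2924 CPM in WD, 796 in HFD and 1038 in CD just outside. Vsig4 stood at 31.6 CPM in WD, 153 in HFD and 229 in CD just inside, against 59.1 CPM in WD, 71.03 in HFD and 341 in CD just outside, and H2-Aa, a class II gene, at 2479 CPM in WD, 8593 in HFD and 3562 in CD just inside, against 2460.3 CPM in WD, 6392 in HFD and 3138 in CD just outside. F13a1 was close on both sides of the threshold in WD and CD. Vsig4 was lower inside than outside in WD and CD and higher inside in HFD. Its UMIs inside and outside were 73 and 110 in WD, 17 and 5 in HFD, and 46 and 44 in CD. The Vsig4 directions in HFD and CD thus rest on few counts.

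Markers that the rule did not gate on were set beside the label. Vsig4, Cbr2 and F13a1 were picked with earlier results of these data known, so their values describe the members and are no check of the label. Csf1r, the receptor that macrophages need for survival, stood at 865 CPM in WD, 1077 in HFD and 1057 in CD members. Adgre1, which encodes F4/80, stood at 411 CPM in WD, 428 in HFD and 472 in CD. Vsig4, a complement receptor of resident macrophages, stood at 108 CPM in WD, 203 in HFD and 435 in CD members, against 37.6 CPM in WD, 44.1 in HFD and 132 in CD in the other C1q-gated cells. Cbr2, a carbonyl reductase, stood at 460.2 CPM in WD, 1066 in HFD and 1198 in CD members, against 203 CPM in WD, 491 in HFD and 542 in CD in the other C1q-gated cells. F13a1, the A subunit of coagulation factor XIII, stood at 4322 CPM in WD, 1623 in HFD and 1763 in CD members, against 2045 CPM in WD, 747 in HFD and 888 in CD in the other C1q-gated cells. The lowest fold of members over the others among these 3 genes was 1.99 (F13a1 in CD). Vsig4 UMIs were found in 32.8% of WD, 19.3% of HFD and 35.5% of CD members, against 1.77% of WD, 1.16% of HFD and 0.738% of CD cells with almost no C1q, so most members had none at this depth. Lyve1 also marks lymphatic endothelium. Summed markers of lymphatic endothelial cells (Prox1, Pdpn and 5 others) came to 12.3 CPM in WD, 1.18 in HFD and 2.22 in CD members, with 1 of the 7 genes at 0 in WD, 6 in HFD and 4 in CD. Markers of serous cavity macrophages, which also express Timd4, summed to 17.9 CPM in WD, 10.6 in HFD and 9.82 in CD.

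Members were set against the other C1q-gated cells of the same library. Since the counts that chose the members come from the same cells, the contrast is a description and supports nothing. Genes with at least 50 UMIs over both sides were compared, and 1.5-fold was the size counted. Of the genes compared, 4.43% in WD, 6.44% in HFD and 4.44% in CD were at least 1.5-fold higher in members, and 10.5% in WD, 6.45% in HFD and 7.82% in CD were at least 1.5-fold lower. Of the genes listed as companions of resident macrophages, 17 of 20 in WD, 15 of 20 in HFD and 14 of 20 in CD passed that size upward, with median log2 ratios of 0.99 in WD, 0.87 in HFD and 0.82 in CD against -0.00 in WD, 0.06 in HFD and 0.02 in CD over all compared genes. Ltc4s, the leukotriene C4 synthase, had log2 ratios of 1.63 in WD, 1.42 in HFD and 1.21 in CD. Gas6, a bridge between dying cells and the receptor Mertk, had 1.17 in WD, 0.87 in HFD and 0.86 in CD, and Fcna, a ficolin of the lectin pathway, 1.49 in WD, 0.62 in HFD and 0.95 in CD. Ccl24 (eotaxin 2) had 1.22 in WD, 1.04 in HFD and 0.79 in CD and Pf4 (platelet factor 4) 0.95 in WD, 0.87 in HFD and 0.68 in CD. The 2 that passed downward in every library were Cd209a (-4.33 in WD, -4.05 in HFD and -2.42 in CD) and Cd209b (-2.32 in WD, -5.21 in HFD and -2.95 in CD), lectins of the same family as those the rule set to 0. HFD members held fewer than 3 UMIs of Cd209b.

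Ranked by the library in which each gene's ratio was smallest, the 15 that led in members were Vsig4, Colec12, Ltc4s, Cbr2, Selenbp1, Gprc5c, Gpt2, F13a1, Armc3, Nid2, Ninj1, Fxyd2, Fcgrt, Wfdc17 and Cd163. Colec12, a scavenger receptor with a collagen-like domain, stood at 422 CPM in WD, 85.3 in HFD and 84.2 in CD members, against 171 CPM in WD, 31.04 in HFD and 33.3 in CD in the other C1q-gated cells. It has long introns and was highest in WD on both sides, while the ratio of members to other cells was 2.47-fold in WD, 2.75-fold in HFD and 2.53-fold in CD. Cd163, the receptor for haptoglobin and hemoglobin, had log2 ratios of 0.94 in WD, 1.00 in HFD and 0.86 in CD. Fcgrt, the neonatal Fc receptor that recycles IgG, had 1.02 in WD, 0.89 in HFD and 0.98 in CD, and Selenbp1, a selenium-binding protein that oxidises methanethiol, 1.26 in WD, 1.06 in HFD and 1.15 in CD.

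**Figure D3:**
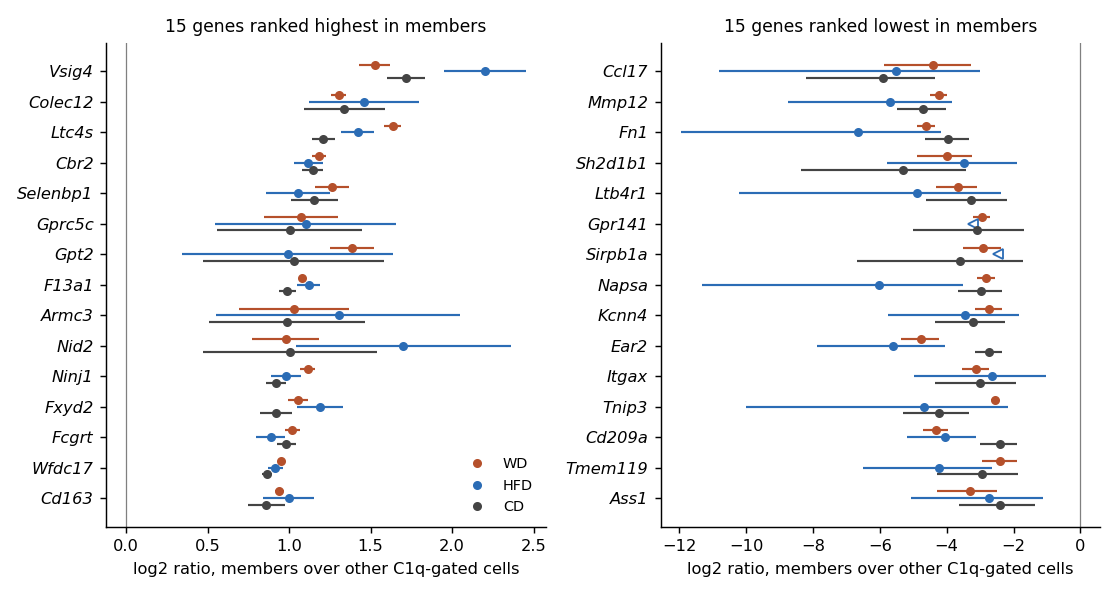
Log2 ratio of members over other C1q-gated cells (horizontal axis) for the 15 genes ranked highest (left) and the 15 ranked lowest (right), in WD, HFD and CD from top to bottom within each gene. Points are ratios of CPM, lines are exact 95% intervals for counting error, and an open triangle marks the bound nearest 0 where members had 0 UMIs. Vsig4 leads on the left with 1.53 in WD, 2.20 in HFD and 1.72 in CD, and Ccl17 leads on the right with -4.43 in WD, -5.51 in HFD and -5.92 in CD. HFD members held 1 UMI of Ccl17.

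Several of the genes lowest in members are known from monocyte-derived and dendritic cells, and the Ccr2 positive cells that the rule set aside are on the other side of the contrast. The 15 ranked lowest were Ccl17, Mmp12, Fn1, Sh2d1b1, Ltb4r1, Gpr141, Sirpb1a, Napsa, Kcnn4, Ear2, Itgax, Tnip3, Cd209a, Tmem119 and Ass1. Fn1, fibronectin, stood at 6.02 CPM in WD, 0.588 in HFD and 6.65 in CD members, against 147 CPM in WD, 59.01 in HFD and 103 in CD in the other C1q-gated cells. Mmp12, the macrophage elastase, stood at 6.95 CPM in WD, 1.18 in HFD and 5.38 in CD members, against 132 CPM in WD, 61.3 in HFD and 139.7 in CD in the other C1q-gated cells. Itgax, which encodes CD11c, had log2 ratios of -3.12 in WD, -2.64 in HFD and -3.00 in CD. HFD members held 1 UMI of Fn1, 2 UMIs of Mmp12 and 3 UMIs of Itgax, so these HFD values rest on few counts. HFD members held 0 UMIs of Gpr141, at least 11.6-fold lower than the other HFD cells when 3 UMIs over the members are taken as the floor. Of the list of monocyte-derived macrophage genes, 13 of 16 in WD, 11 of 14 in HFD and 13 of 16 in CD passed downward and 0 passed upward, with S100a4, S100a6 and S100a10 short of that size in all 3 libraries.

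Class II antigen presentation genes were lower in members. Of the genes compared, 10 of 11 in WD, 9 of 10 in HFD and 10 of 11 in CD were at least 1.5-fold lower, with median log2 ratios of -1.48 in WD, -1.46 in HFD and -1.72 in CD. H2-Aa, the class II alpha chain, stood at 1805 CPM in WD, 4942 in HFD and 2353 in CD members, against 4594 CPM in WD, 12545 in HFD and 7728 in CD in the other C1q-gated cells. Cd74, the invariant chain of class II, stood at 4599 CPM in WD, 14148 in HFD and 8047 in CD members. The other C1q-gated cells had 11785 CPM in WD, 39232 in HFD and 25261 in CD. Ciita, the master regulator of class II transcription, had log2 ratios of -1.93 in WD, -1.80 in HFD and -1.75 in CD, and H2-DMb2, a chain of the peptide editor, -2.72 in WD, -4.12 in HFD and -2.20 in CD. The HFD value of H2-DMb2 rests on 3 UMIs in members. Cd86, a costimulatory ligand in the same list, had -0.16 in WD, -0.16 in HFD and 0.04 in CD. Against resident cells that passed every step but the Cd209 step, the median of the class II list was -0.04 in WD, 0.45 in HFD and -0.12 in CD.

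Cell cycle genes were also lower. Of the genes compared, 10 of 12 in WD, 7 of 9 in HFD and 11 of 12 in CD passed downward. Mki67, a marker of cycling cells, had log2 ratios of -1.20 in WD, -1.49 in HFD and -1.23 in CD and Ube2c, a mitotic ubiquitin ligase partner, -1.39 in WD, -1.44 in HFD and -1.47 in CD. Tyms, thymidylate synthase, had -0.18 in WD, 0.02 in HFD and -0.23 in CD. The 90th percentile of UMIs per cell was 23478 in WD, 5375 in HFD and 7251 in CD members. In the other C1q-gated cells it was 35867 in WD, 5689 in HFD and 9613 in CD. Median depth of the other cells was 12345.5 UMIs in WD, 2880 in HFD and 4227 in CD, above that of members in WD alone. The part of depth in the cell cycle ratios was not tested. Among scavenger receptors 4 of 10 in WD, 4 of 10 in HFD and 3 of 10 in CD passed upward, with Stab1, a clearance receptor, at 0.74 in WD, 0.85 in HFD and 0.70 in CD. Among iron and heme genes 7 of 14 in WD, 3 of 13 in HFD and 4 of 14 in CD passed upward, with Blvrb, a biliverdin reductase, at 0.67 in WD, 0.66 in HFD and 0.63 in CD. The iron exporter Slc40a1 had 0.77 in WD, -0.35 in HFD and 0.43 in CD, so its direction was not shared by the libraries. Of the complement list 5 of 12 in WD, 3 of 9 in HFD and 3 of 11 in CD passed upward, led after Vsig4 by C4b (1.08 in WD, 0.70 in HFD and 1.00 in CD).

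The remaining lists had members on both sides or, for the NF-kB and lipid-associated lists, on the lower side. Of the transcription factors compared 3 of 20 in WD, 4 of 18 in HFD and 1 of 20 in CD passed upward. Maf, a factor of resident identity, had log2 ratios of 0.72 in WD, 0.49 in HFD and 0.49 in CD. Klf4, a flow- and stress-responsive factor, had 0.55 in WD, 1.30 in HFD and 0.33 in CD, and Bhlhe40, a repressor of Il10, had -1.78 in WD and -2.54 in CD. In the efferocytosis list Gas6 and Stab1 passed upward in every library, and Axl, a receptor of the Gas6 family, passed downward (-1.14 in WD, -1.44 in HFD and -1.05 in CD). In the growth factor list Pdgfc had 0.91 in WD, 1.19 in HFD and 0.78 in CD and Gdf3, a TGF-beta family member, -2.08 in WD, -4.56 in HFD and -2.13 in CD. In the lipid-associated list 6 of 16 in WD, 6 of 15 in HFD and 8 of 16 in CD passed downward, with Gpnmb at -1.32 in WD, -3.33 in HFD and -2.98 in CD and the tetraspanin Cd9 at -1.37 in WD, -1.51 in HFD and -1.68 in CD. HFD members held 1 UMI of Gdf3 and 4 UMIs of Gpnmb, so these HFD values rest on few counts. Fcgr4, an activating Fc receptor, had -1.47 in WD, -1.53 in HFD and -0.86 in CD. In the fatty acid list Pparg, a nuclear receptor of lipid handling, had -1.44 in WD, -0.73 in HFD and -1.57 in CD, and among cholesterol genes Abcg1, an efflux transporter, -0.74 in WD, -0.45 in HFD and -0.48 in CD. The NF-kB list had 4 of 15 in WD, 1 of 7 in HFD and 4 of 12 in CD passing downward and 0 upward, with Il1b at -1.38 in WD, -2.43 in HFD and -1.18 in CD. Cathepsin and lysosome genes had medians of 0.35 in WD, 0.20 in HFD and 0.26 in CD. Interferon response genes had medians of -0.25 in WD, -0.25 in HFD and 0.12 in CD, and chemokines 0.23 in WD, 0.42 in HFD and -0.05 in CD. Ccl8, a monocyte attractant, had 1.25 in WD, -0.06 in HFD and -0.08 in CD, higher in members in WD alone of the 3 libraries.

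The nearest population was the 117 WD, 219 HFD and 281 CD cells that passed every step but held a Cd209d, Cd209f or Cd209g transcript. Members and these cells had near equal levels of the markers Cbr2 and F13a1: log2 ratios of members over Cd209 cells were -0.03 in WD, -0.18 in HFD and 0.02 in CD for Cbr2 and -0.19 in WD, -0.19 in HFD and -0.05 in CD for F13a1. Several lectins and receptors were lower in members. Clec10a, a galactose lectin of macrophages, had -1.46 in WD, -1.90 in HFD and -1.23 in CD, Ednrb, the endothelin B receptor, -0.66 in WD, -1.20 in HFD and -0.95 in CD, and Fcna -0.76 in WD, -1.62 in HFD and -0.72 in CD. Vsig4 ran the other way in HFD and CD, with -0.48 in WD, 0.88 in HFD and 0.69 in CD. Cx3cr1, the fractalkine receptor, had 0.24 in WD, 1.51 in HFD and 0.81 in CD and the calcium-binding S100a4 had 0.62 in WD, 1.16 in HFD and 0.62 in CD. Median depth was 13857 UMIs in WD, 3560.0 UMIs in HFD and 4868 UMIs in CD in the Cd209 cells, above that of members in each library, and its part in these ratios was not tested.

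Within the members, the class II share varied widely from cell to cell. The 10 class II genes (the list without Cd86) took a median of 0.272% in WD, 1.00% in HFD and 0.265% in CD of a member's UMIs. The 10th and 90th percentiles of cells were 0.0321% and 2.85% in WD, 0.0982% and 8.07% in HFD, and 0.0433% and 5.30% in CD. The other C1q-gated cells had medians of 2.72% in WD, 8.03% in HFD and 4.53% in CD. The 90th percentile of members was above the median of the other cells in each library, so some members had as much class II as the cells outside.

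**Figure D4:**
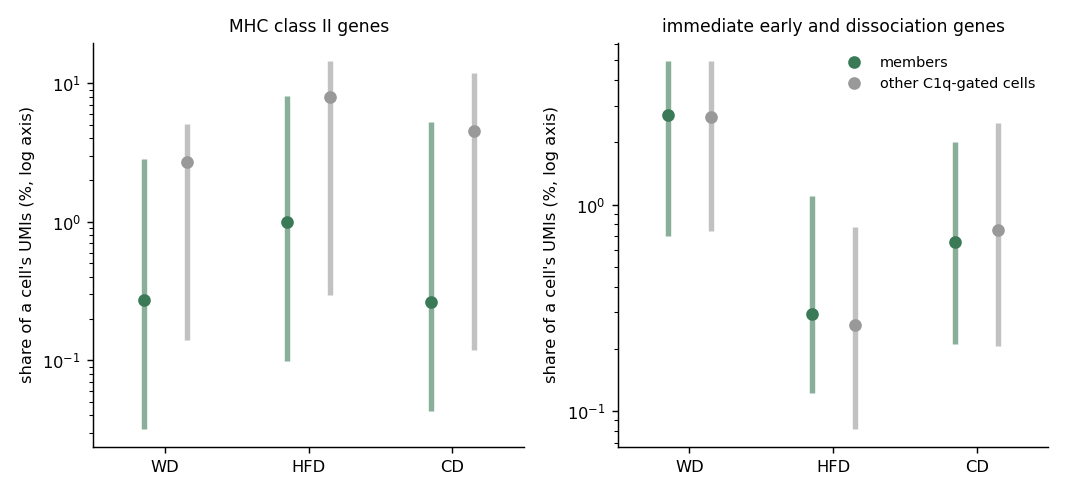
Share of a cell's UMIs in percent (vertical log axes) taken by MHC class II genes (left) and by immediate early and dissociation genes (right), for members (green) and other C1q-gated cells (grey) in WD, HFD and CD. Points are medians over cells and bars run from the 10th to the 90th percentile. Class II medians of members are 0.272% in WD, 1.00% in HFD and 0.265% in CD, and immediate early medians are 2.71% in WD, 0.294% in HFD and 0.661% in CD.

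Members with a Timd4 UMI (1066 in WD, 245 in HFD, 378 in CD) were set beside members without one (393 in WD, 262 in HFD and 290 in CD). The median log2 ratio of the class II list was -0.26 in WD, 0.01 in HFD and -0.13 in CD, and that of the companions 0.17 in WD, 0.14 in HFD and 0.05 in CD. Vsig4 had 0.91 in WD, 0.68 in HFD and 0.57 in CD. Markers of neutrophils also differed with the split, and not in 1 direction. S100a8, a calcium-binding alarmin, stood at 487 CPM with Timd4 and 121 CPM without it in WD, 117 CPM with it and 46.2 CPM without it in HFD, and 297 CPM with it and 501 CPM without it in CD. Retnlg, a resistin-like protein, stood at 108.5 CPM with Timd4 and 6.69 CPM without it in WD members. Their part in these ratios was not tested. Cells with Timd4 were deeper, with a median of 12798.5 UMIs in WD, 3559 in HFD and 4855 in CD, against 10639 in WD, 2864.5 in HFD and 4096.5 in CD without it, and the part of depth in these ratios was not tested.

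Between HFD and CD members, whose files were written by the same software version, most class II genes compared were higher in HFD, and most inflammatory and immediate early genes and several chemokines were lower. Of 6909 genes compared, 5.50% were at least 1.5-fold higher and 6.89% at least 1.5-fold lower in HFD members, with a median log2 ratio of -0.01. The gate genes differed little: Timd4 had a log2 ratio of 0.08, Lyve1 0.07 and Folr2 0.17. Member depth was lower in HFD, with a median of 3123 UMIs against 4526 in CD, and the HFD sum held 1700377 UMIs against 3157583.

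The class II genes differed together: 7 of 8 genes compared were at least 1.5-fold higher in HFD members, with a median log2 ratio of 0.83. H2-Aa had 4942 CPM in HFD and 2353 CPM in CD members (8403 and 7431 UMIs), 2.10-fold (2.04 to 2.17) higher in HFD. Cd74 had 14148 CPM in HFD and 8047 CPM in CD members (24057 and 25410 UMIs), a 1.76-fold (1.73 to 1.79) difference. H2-DMb1, a chain of the peptide editor, had 389 CPM in HFD and 196 CPM in CD members (662 and 619 UMIs), 1.99-fold (1.78 to 2.22) higher, and Ciita 28.2 CPM in HFD and 13.9 CPM in CD members (48 and 44 UMIs), 2.03-fold (1.32 to 3.12) higher. H2-Aa was found in 411 of 507 HFD members, against 430 of 668 in CD. Cd86 stayed short of the size, at a log2 ratio of -0.56. In the other C1q-gated cells 4.18% of genes were at least 1.5-fold higher and 7.22% lower in HFD, and there 6 of 11 class II genes were higher, with a median of 0.60. The difference between the cell groups was not tested.

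Several chemokines and most of the compared NF-kB targets were lower in HFD members. Of the chemokines compared, 7 of 15 were at least 1.5-fold lower and 0 higher, and the other 8, Pf4, Ccl24 and Cxcl16 among them, were within 1.5-fold. Cxcl2, a neutrophil attractant, had 62.9 CPM in HFD and 787 CPM in CD members (107 and 2486 UMIs), 12.5-fold (10.3 to 15.3) lower in HFD. It was found in 29 HFD cells and 293 CD cells. Ccl3 and Ccl4, the macrophage inflammatory proteins, had 14.7 CPM in HFD and 144 CPM in CD members (25 and 455 UMIs) and 44.7 CPM in HFD and 216 CPM in CD members (76 and 681 UMIs). Ccl2, the ligand of Ccr2, was 2.11-fold (1.90 to 2.35) lower in HFD and Ccl7 1.99-fold (1.80 to 2.22) lower. In near-empty barcodes, which hold free RNA, Cxcl2 reached 25.5 CPM for HFD and 402 CPM for CD, and its part in the difference was not tested. Of the NF-kB list 6 of 9 were lower, with a median of -1.32. Nfkbia, the inhibitor that NF-kB induces, had 206 CPM in HFD and 515 CPM in CD members (350 and 1626 UMIs), and Tnf 4.70 CPM in HFD and 36.4 CPM in CD members (8 and 115 UMIs). Il1b had 17.6 CPM in HFD and 88.99 CPM in CD members (30 and 281 UMIs), 5.04-fold (3.46 to 7.62) lower in HFD. The NF-kB list took 0.0638% of summed UMIs in HFD and 0.123% in CD members. In the other C1q-gated cells it took 0.0692% in HFD and 0.156% in CD. The chemokine list took 1.37% in HFD and 1.48% in CD members, and 0.848% in HFD and 1.12% in CD in the other cells. Both lists were thus lower in HFD in both cell groups, and the difference between the groups was not tested.

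Immediate early and dissociation genes, which rise within minutes of stress or enzymatic digestion, were lower in HFD members for 13 of 16 genes compared, with a median of -1.30. Fos had 576 CPM in HFD and 1454 CPM in CD members (980 and 4591 UMIs) and Egr1 92.9 CPM in HFD and 256 CPM in CD members (158 and 808 UMIs). Ier3, an early response gene of survival signalling, was 3.85-fold (3.20 to 4.68) lower and Hspa1a, an inducible heat shock protein, 4.22-fold (3.70 to 4.82) lower. A member's median share of UMIs in these genes was 0.294% in HFD and 0.661% in CD. The other C1q-gated cells had 15 of 16 lower in HFD, with a median of -1.92. Gadd45b, a stress gene, had 10.6 CPM in HFD and 100.1 CPM in CD members (18 and 316 UMIs), and Ppp1r15a, which resets translation after stress, 29.99 CPM in HFD and 160.2 CPM in CD members (51 and 506 UMIs). Hsph1, a heat shock cochaperone, was on the other side, at 37.1 CPM in HFD and 12.98 CPM in CD members (63 and 41 UMIs). The diet and the handling of the hearts, each 1 library, cannot be told apart.

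Complement and lipid genes differed in part. Vsig4 had 203 CPM in HFD and 435 CPM in CD members (345 and 1373 UMIs), 2.14-fold (1.90 to 2.42) lower in HFD, and was found in 98 HFD and 237 CD members. The other C1q-gated cells, given above, also had less Vsig4 in HFD than in CD. For the further genes of this paragraph only members are given, so the values do not show whether the other cells differed too. C4b, the fourth complement component, had 118 CPM in HFD and 271 CPM in CD members (201 and 857 UMIs), 2.30-fold (1.97 to 2.69) lower. Lpl, the lipoprotein lipase, was 1.95-fold (1.62 to 2.37) lower in HFD and Lipa, the lysosomal acid lipase, 1.93-fold (1.62 to 2.32) lower. Plin2, which coats lipid droplets, was 1.66-fold (1.47 to 1.88) lower, and Cd36, a fatty acid receptor, 1.58-fold (1.43 to 1.74) lower. Of the interferon list 2 of 15 were higher, Gbp3 among them, and 5 of 15 lower, among them Irf7, 2.59-fold (1.86 to 3.69) lower, and Ifit3, 2.26-fold (1.60 to 3.26) lower. Of the cell cycle list 5 of 8 were lower, with Birc5, a mitotic regulator, at 11.8 CPM in HFD and 28.5 CPM in CD members (20 and 90 UMIs). Mertk, which binds Gas6, was 1.54-fold (1.13 to 2.08) higher, and Pdgfb, a platelet-derived growth factor, 1.94-fold (1.26 to 2.99) higher. Of the 18 companions compared, Vsig4 and Ednrb were at least 1.5-fold lower and the others were within 1.5-fold. None of the 14 iron and heme genes, the 16 lysosome genes or the 6 Fc receptor genes compared passed 1.5-fold in either direction.

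Of the 12 genes ranked highest in HFD members, 9 were Sparc, Gpihbp1, Igfbp7, Rgcc, Tm4sf1, Id1, Gng11, Aqp1 and Cavin2, which are abundant in vascular endothelium, and the others were H2-Aa, Hsph1 and H2-DMb1. Gpihbp1, which anchors lipoprotein lipase on capillaries, had 34.7 CPM in HFD and 6.65 CPM in CD members (59 and 21 UMIs), in 30 HFD and 7 CD members. Fabp4, a fatty acid carrier that both the endothelial and the fatty acid list hold, had 325 CPM in HFD and 74.1 CPM in CD members (553 and 234 UMIs). The 10 endothelial markers summed to 21.7 CPM in WD, 469 in HFD and 122 in CD members and to 1765 CPM in HFD and 1012 CPM in CD near-empty barcodes. Fabp4 alone gave 553 of the 797 UMIs of these markers in HFD members and 234 of the 386 in CD members. The 12 cardiomyocyte markers summed to 435 CPM in WD, 559 in HFD and 227 in CD members and to 1286 CPM in HFD and 1032 CPM in CD near-empty barcodes. Their part in the ratios was not tested. A setting chosen after seeing the data left out the 32 HFD and 46 CD members with at least 0.1% endothelial or neutrophil marker UMIs. There, 7 of 8 class II genes were higher in HFD, with a median of 0.83. Of 16 immediate early genes, 13 were lower, with a median of -1.35. The chemokine and NF-kB lists are not given for this setting, so these values do not cover them.

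The 12 genes ranked lowest in HFD members were Cxcl2, Igkc, Ccl3, Gadd45b, Spp1, Hcar2, Cxcl9, Slpi, Slc7a11, Ppp1r15a, Cxcl10 and Ccl4. Some of them rested on few cells. Igkc, an antibody light chain, had 1 UMI in HFD members and 99 UMIs in 6 CD members, 53.3-fold (9.35 to 2127) lower in HFD. Spp1, osteopontin, had 14.7 CPM in HFD and 115 CPM in CD members (25 and 362 UMIs), and 1 CD cell held 69.1% of the CD UMIs. Cxcl9, an interferon gamma target, had 3.53 CPM in HFD and 37.7 CPM in CD members (6 and 119 UMIs), with 67.2% in 1 CD cell. Cxcl10 had 2.94 CPM in HFD and 27.2 CPM in CD members (5 and 86 UMIs), with 47.7% in 1 CD cell. Slpi, a protease inhibitor abundant in neutrophils, had 5.88 CPM in HFD and 49.1 CPM in CD members (10 and 155 UMIs) in 4 HFD and 34 CD cells. Neutrophil markers summed to 1263 CPM in WD, 214 in HFD and 713 in CD members. In near-empty barcodes these markers came to 117 CPM for HFD and 482 CPM for CD, and their part was not tested. Slc7a11, a cystine transporter, and Hcar2, a receptor for hydroxybutyrate, each had UMIs in 1 HFD cell, against 35 CD cells for Slc7a11 and 36 CD cells for Hcar2.

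**Figure D5:**
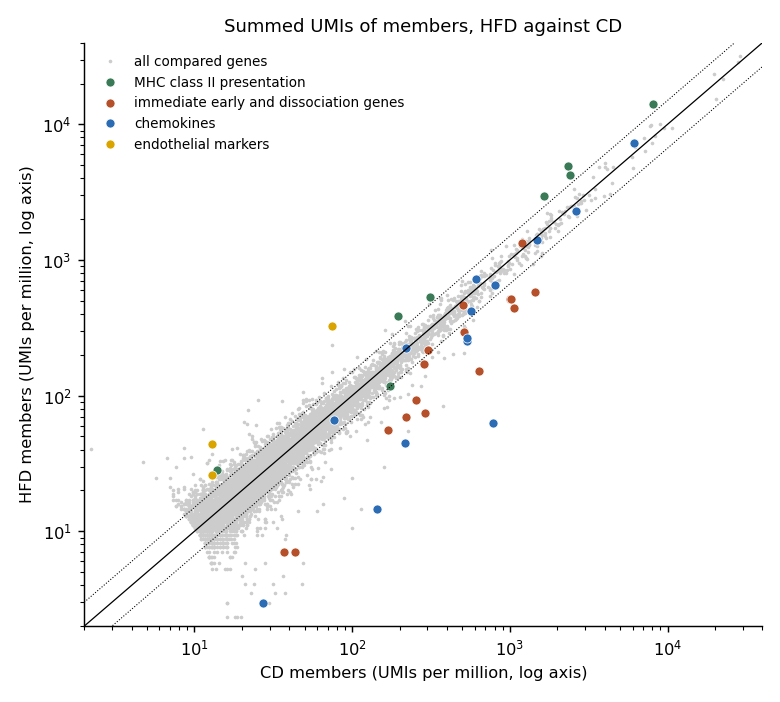
Summed CPM of HFD members (vertical log axis) against CD members (horizontal log axis), 1 point per compared gene, with 4 gene lists in colour. The solid line marks equal levels and the dotted lines 1.5-fold. All class II genes but Cd86 lie above the line, with H2-Aa at 4942 in HFD and 2353 in CD, and immediate early genes and chemokines lie mostly below it, with Cxcl2 at 62.9 and 787.

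In WD members 44.9% of genes were at least 1.5-fold higher and 28.5% lower than in CD members, and 44.7% were higher and 27.1% lower than in HFD members. The median log2 ratio was 0.36 against CD and 0.36 against HFD, and ratios below are also given centred on genes of like intron length. Centred this way, 3517 of 10956 genes were still at least 1.5-fold higher in WD than in CD members and 3081 lower. Against HFD, 3438 of 10858 were higher and 2992 lower. Most compared genes thus still differed by that size after the centring, and centred values are not free of the library difference. Both contrasts share the WD members.

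Of the companions compared, 4 of 19 were at least 1.5-fold higher and 15 of 19 lower in WD than in CD members, and 4 of 19 were higher and 13 of 19 lower than in HFD members. The levels of the gate genes were used by the rule and are a description. Against CD, Lyve1 had a log2 ratio of 0.84 (1.15 centred), Timd4 -0.42 (-1.14 centred), Folr2 -1.11 (-1.06 centred), Cbr2 -1.38 (-0.60 centred) and Vsig4 -2.01 (-3.13 centred). F13a1, with long introns, had 1.29 (-1.34 centred), so its direction turned with the centring. Inflammatory and immediate early genes were mostly higher in WD members, with and without the centring. Of the NF-kB list 15 of 15 passed upward against CD and 15 of 15 against HFD, with medians of 2.65 against CD (2.99 centred) and 3.92 against HFD (4.61 centred). Of the immediate early list 15 of 16 passed upward against CD and 15 of 16 against HFD, with centred medians of 2.33 against CD and 3.37 against HFD. Cxcl2 had 2687 CPM in WD, 62.9 CPM in HFD and 787 CPM in CD members. Il1b had 388 CPM in WD, 17.6 in HFD and 88.99 in CD, and Fos 3893 CPM in WD, 576 in HFD and 1454 in CD. Hspa1b, an inducible heat shock protein, had 494 CPM in WD, 7.06 in HFD and 43.7 in CD. Median shares of a member's UMIs in immediate early genes were 2.71% in WD, 0.294% in HFD and 0.661% in CD, and those of the other C1q-gated cells were 2.65% in WD, 0.261% in HFD and 0.756% in CD. WD was thus the highest and HFD the lowest library in both cell groups, and the handling of the tissue cannot be told apart from the diet.

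Class II genes were lower in WD than in HFD members, and their direction against CD turned with the centring for H2-Aa. Against HFD, 6 of 9 class II genes were at least 1.5-fold lower in WD members, with a median of -1.45 (-0.88 centred), and against CD 5 of 10 were, with a median of -0.59 (-0.07 centred). H2-Aa had 1805 CPM in WD, 4942 in HFD and 2353 in CD, with a log2 ratio against CD of -0.38 (0.40 centred). Ccl8 had 131 CPM in WD, 655 in HFD and 809 in CD, lower in WD than in both others. The genes ranked highest in WD against CD were Slc8a1, Pde7b, Atp6v0c, Prkg1, Rnasek, Gphn, Arl15 and Galnt2, of which Atp6v0c, a subunit of the vacuolar proton pump, and Rnasek have short introns and Galnt2 had 1312 UMIs in WD and 0 in CD members, at least 67.1-fold higher over a floor of 3 UMIs. Against HFD they were Atp6v0c, Slc8a1, Tnfaip3, Prkg1, Pde7b, Gab2, Ldlrad4 and Dennd4a. Slc8a1, a sodium-calcium exchanger of cardiomyocytes with long introns, had 11882 UMIs in WD and 3 in CD members, and Tnfaip3, a brake on NF-kB, 10585 in WD and 6 in HFD members. The lowest against CD were Coro1b, Rps6ka4, Taf6l, Cxcl13, Spp1, Nutf2, Ftl1-ps1 and Chtf8, and against HFD Gpihbp1, Cavin2, Rps6ka4, Coro1b, Taf6l, Sparcl1, Chtf8 and Igfbp7. The genes Coro1b, Rps6ka4, Taf6l and Chtf8 were low against both libraries. Ftl1-ps1 is a pseudogene copy of Ftl1, and its counts may be split with that gene.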

How the data were processed

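The unit is UMI counts per gene and cell, as deposited in 1 10x matrix per diet. The file headers name software version 7.2.0 for WD and 3.0.1 for HFD and CD. The submitters' processing notes name Seurat and GRCm38, and the labels' protocols give the sort, which left out doublets and dead cells. How reads in introns were treated is not stated there. HFD and CD files also hold near-empty barcodes, of which those with 10 to 100 UMIs (79182 in HFD and 84595 in CD) served as a measure of free RNA. No such barcodes of the WD library were used here.

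Cells were gated as described in the report, and counts were summed over the cells of a class in 1 library and scaled to counts per 1000000 UMIs (CPM) over the 30406 genes shared by the files by Ensembl identifier. A gene was compared when both sides together had at least 50 UMIs, and 1.5-fold was the size counted. Where 1 side had 0 UMIs, 3 UMIs over its cells were taken as the floor. The intervals of ratios are exact conditional binomial intervals at 95%, and those of shares are exact Clopper-Pearson intervals at 95%. UMIs of 1 cell are not independent draws, so intervals and floors cover counting error only. There was 1 library per diet, nothing in the labels says how many animals a library holds, and no p-value was computed. No doublet caller was applied in the values given; removing the cells with the highest doublet scores was tried as an alternative. Cells were also thinned to 1000 UMIs each with seed 7. For intron length, GENCODE vM21 was used. Ratios of WD members were centred on the median of compared genes in the same of 10 groups of intron length. Python 3.11.15, numpy 2.4.6, scipy 1.17.1, pandas 2.3.3, scikit-learn 1.9.0 and matplotlib 3.10.9 were used, and the ratios were tested on simulated data.

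The members and the 19 gene lists were chosen with earlier results of these data known. Named genes were the 15 highest and 15 lowest of members against other C1q-gated cells, by the ratio least far in that direction among the libraries. Between diets they were the 12 highest and 12 lowest of HFD against CD and the 8 highest and 8 lowest of each WD contrast, by the interval bound nearest 1. Gate genes, mitochondrial, ribosomal protein and unnamed gene models and markers of other cells were left out of these ranks. The gate genes, Vsig4, Cbr2 and F13a1 and up to 4 genes of each list with the largest ratios were named besides. Maf, Slc40a1, Cd86, Tyms and a few further list members were named after their values were seen.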

Additional observations from a re-analysis of the deposited data

Results flagged for a closer look

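The chemokine Cxcl9 did not have 1 direction across the libraries. Its log2 ratio of members over other C1q-gated cells was -0.50 in WD, -1.91 in HFD and 2.09 in CD, and 67.2% of its UMIs in CD members lay in 1 cell. Cxcl13, a B cell attractant, had log2 ratios of 0.69 in WD, -0.054 in HFD and -0.66 in CD. These directions were not stable: the WD value was -1.067 with the 3-gene minimum at 0.2% and -1.071 in thinned cells, and the CD value was 0.47 without the Ccr2 and Cd209 requirement. The CD value of Cxcl9 was -3.38 with the 3-gene minimum at 0.2%. Between HFD and CD, Fabp5, a fatty acid carrier, had a log2 ratio of 0.70 in members and -1.05 in the other C1q-gated cells. Without the members that carried endothelial or neutrophil markers, the members' value was -0.011. The differences between libraries and between cell groups were not tested.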

How the results depend on the processing

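The 9 shares and counts were recomputed under the alternatives, giving 107 values. Of these, 81 stayed within the interval or within 1.5 times and 26 did not. A turn of direction was not scored for shares and counts. For the 579 ratios of named genes, 5235 of 6403 values stayed within the interval, 1153 moved beyond it, and 15 of those whose ratio had been past 1.5-fold turned direction. Turns of smaller ratios, such as that of H2-Aa in WD against CD, are counted among those that moved. With the 3-gene minimum at 0.2%, the share of members was 21.7% in WD, 18.3% in HFD and 19.5% in CD, and with no requirement on Ccr2 and Cd209 it was 49.4% in WD, 37.9% in HFD and 47.3% in CD. Thinned cells gave 41.1% in WD, 18.8% in HFD and 22.01% in CD, and the C1q gate at 0.6% gave 46.4% in WD. Genes at least 1.5-fold apart between members and other C1q-gated cells numbered 1889 in WD, 999 in HFD and 1115 in CD. With a minimum of 20 UMIs they were 1836 in HFD and 1779 in CD. A minimum of 200 UMIs gave 1084 in WD, 287 in HFD and 356 in CD, thinning 1027 in WD and 619 in CD, and a 2-fold size 813 in WD, 290 in HFD and 378 in CD. HFD against CD members gave 856 genes, 1706 with a minimum of 20 UMIs, 183 with 200 UMIs, 372 thinned and 189 at 2-fold. Thinning gave 4064 genes in WD against CD (8035 unthinned) and 3786 in WD against HFD (7790 unthinned).

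Centring on the median of all genes split WD against CD into 4058 higher and 4020 lower, where 4914 were higher and 3121 lower without it. The split of WD against HFD was 4013 and 3893 centred, against 4852 and 2938, and that of HFD members against other HFD cells 384 and 593, against 499 and 500. Within groups of like intron length, F13a1 had log2 ratios of -1.34 in WD against CD and -1.10 in WD against HFD. Without the Ccr2 and Cd209 requirement the log2 ratio of members over others was 2.19 in WD, 2.89 in HFD and 3.09 in CD for Cd209b, 0.53 in HFD for Cd209a and 0.47 in CD for Cxcl13, and 0.12 for Bhlhe41 in HFD against CD. With the 3-gene minimum at 0.2%, Cxcl13 had -1.067 in WD and Cxcl9 -3.38 in CD over other cells, while HFD against CD gave 0.71 for Spp1 and 1.11 for Cxcl9. Thinned cells gave -1.071 for Cxcl13 in WD and -0.48 for Tfrc in CD. Leaving out members that carried endothelial or neutrophil markers, chosen after seeing the data, gave -0.011 for Fabp5 in HFD against CD. The cause of these turns was not tested. No paired analysis was possible because each diet has 1 library.

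With 1 library per diet, spread between animals could not be measured, and no difference between diets was tested. HFD members had the lowest depth, and 3 UMIs over them correspond to 1.76 CPM, against 0.146 CPM in WD and 0.9501 CPM in CD.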
